A study of Mus musculus with 6 samples.

Results

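The integrin subunit genes of microglia were followed in cultured mouse cells that lack the transcription factor FosB. They were taken as the probe sets whose only gene symbol on the platform was Itgam, Itgax, Itgb2, Itgal, Itga4, Itga6, Itgav, Itgb1 or Itgb5. That gave 9 probe sets, 1 for each gene, of 23410 probe sets with a gene symbol that were tested and 35557 in the value table. A further 3 probe sets carry Itgam together with a second gene symbol and were not used. The study profiled RNA from primary microglia, the resident macrophages of the brain, on 6 Affymetrix arrays. In the fosB-null group, 3 arrays held microglia from mice homozygous for the fosBG null allele (G/G), bred by intercrossing heterozygotes at backcross generation 20 to C57BL/6J. In the wild-type group, 3 arrays held microglia from C57BL/6J mice. In both groups the cells came from the cerebral cortex of mice aged 2 days, were cultured for 10 days, and were replated for 24 h before harvest with no further treatment. Microglia grown from newborn cortex in a dish are a model of microglia in the brain, and the allele is one that every cell of the animal carries.

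Integrins are adhesion receptors made of an alpha and a beta subunit, both of which span the membrane. Microglia use them to hold on to matrix and to other cells, to migrate, and to take up particles. The alpha subunits encoded by Itgam (CD11b) and Itgax (CD11c) each pair with the beta subunit encoded by Itgb2 (CD18) to form complement receptors 3 and 4, which bind targets coated with complement fragments of C3. CD11b is also the usual surface marker by which microglia are recognised. An integrin reaches the cell surface as a dimer, so the RNA of a single subunit does not give the amount of receptor.

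Arrays carry a number from 1 to 3 within each group, and same-numbered arrays are called pairs here because their values moved together. Signals are on a log2 scale, where a difference of 1 is a factor of 2, and differences are fosB-null minus wild-type. Signals of different probe sets are not read as relative amounts of RNA, because each probe set has its own sensitivity. Where probe sets are ranked by mean signal or summed below, this describes array signal only. A probe set passed the test when its p-value from limma, adjusted over all 23410 probe sets, was below 0.05. In bulk RNA, fewer cells of a type and less RNA per cell cannot be told apart, for any gene below. The labels call the arrays biological replicates but do not say which cultures or animals they came from, so the p-values measure the spread between these arrays.

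None of the 9 integrin genes passed the test, and the limma adjusted p was 1 for each of them. Over all tested probe sets the test called 1, or 0.00427%. At an unadjusted p below 0.05 there was 1 integrin gene, Itga4, where 169 probe sets, or 0.722%, reached that level and 0.269% did so with fosB-null higher. In a fit with a random block for the array number, which treats same-numbered arrays as related, 1 of the 9 genes passed, again Itga4, where 47 probe sets passed, or 0.201%, and 0.0555% passed with fosB-null higher. With the number as a fixed block 0 of the 9 passed by limma, and 0 of all probe sets did (0%). At an unadjusted p below 0.05 the fixed block had 2 of the 9, Itga4 and Itgb2, and 541 probe sets (2.31%), and the random block 3 of the 9, Itgam being the third, and 9.65% of probe sets. Of the 9 genes, 6 had a higher mean in fosB-null arrays, 2 a lower mean and 1 the same mean. Over all tested probe sets 30.9% had a higher mean and 41.3% a lower one. The median difference of the 9 genes was 0.04, against 0.00 over all tested probe sets. Leaving out wild-type replicate 2 gave 0.11, and leaving out wild-type replicate 3 gave -0.02. Leaving out wild-type replicate 1 gave 0.01, leaving out fosB-null replicate 2 gave 0.0034, and leaving out both arrays numbered 3 gave 0.00.

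**Figure D1:**
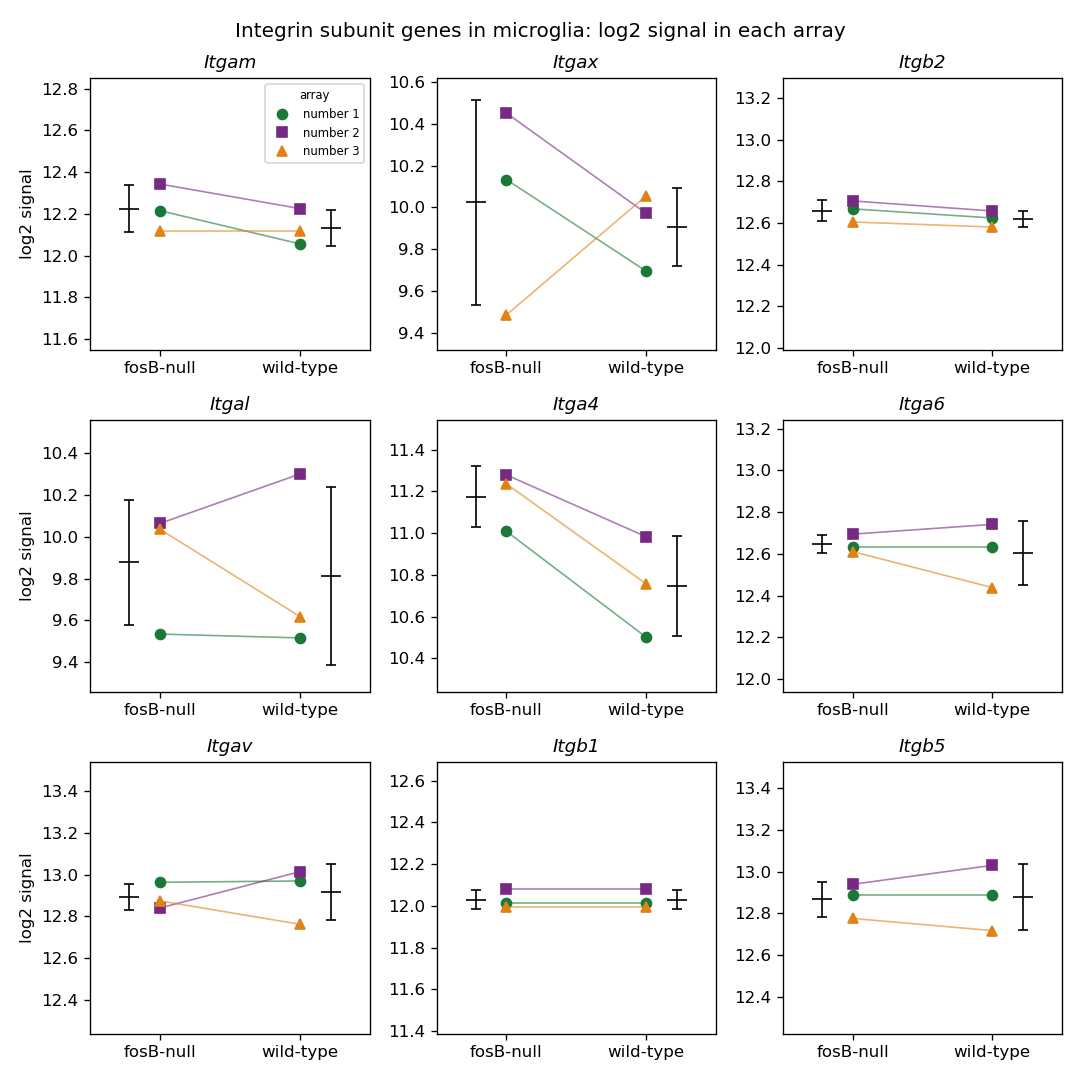
Log2 signal (vertical axis, with the same span in each panel) of the 9 integrin genes in the 3 fosB-null and the 3 wild-type arrays. Coloured points are arrays, lines join arrays with the same number, and black bars are the group mean and SD. Itga4 has all 3 fosB-null arrays above all 3 wild-type arrays, and Itgb1 has the same value in both arrays of each number.

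Exact ties limit what a pair can show. In 4 of the 9 genes both arrays of at least 1 pair held the same value to the last deposited digit. That happened in 85% of all tested probe sets, and in 66.9% of the 6419 whose mean signal was at least that of the dimmest of the 9. Itgb1 was tied in all 3 pairs, as were 27.8% of all tested probe sets and 7.12% of those 6419. No source used here records the step that made the ties, so tied values cannot be read as equal expression.

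The promoter sequences of Itgam, Itgax and Itga4 are shown because the first 2 encode complement receptor alpha subunits and Itga4 had the lowest p of the 9. FosB belongs to the AP-1 family, which binds TGANTCA, and PU.1, a factor that macrophages depend on, binds sites with GAGGAA. Each sequence runs 5′ to 3′ on the plus strand, from 250 bases before the start of transcription, from RefSeq on GRCm38.p6. Capitals mark TGANTCA, or GAGGAA on either strand (TTCCTC), and the motifs do not overlap in these sequences. Itgam lies at chr7:128062390-128062689, Itgax at chr7:128129300-128129599 and Itga4 at chr2:79255176-79255475.
Itgam promoter: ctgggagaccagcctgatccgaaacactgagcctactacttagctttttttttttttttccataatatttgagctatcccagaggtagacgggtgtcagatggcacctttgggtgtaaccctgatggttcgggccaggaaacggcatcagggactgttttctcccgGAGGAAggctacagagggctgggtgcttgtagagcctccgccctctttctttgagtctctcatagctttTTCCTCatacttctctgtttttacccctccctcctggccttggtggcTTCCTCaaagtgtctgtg
Itgax promoter: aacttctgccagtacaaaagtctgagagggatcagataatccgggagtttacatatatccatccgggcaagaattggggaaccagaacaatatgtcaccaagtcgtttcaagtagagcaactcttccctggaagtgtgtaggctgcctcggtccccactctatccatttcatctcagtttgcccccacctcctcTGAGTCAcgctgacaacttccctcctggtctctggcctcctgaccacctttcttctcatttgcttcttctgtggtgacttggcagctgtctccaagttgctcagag
Itga4 promoter: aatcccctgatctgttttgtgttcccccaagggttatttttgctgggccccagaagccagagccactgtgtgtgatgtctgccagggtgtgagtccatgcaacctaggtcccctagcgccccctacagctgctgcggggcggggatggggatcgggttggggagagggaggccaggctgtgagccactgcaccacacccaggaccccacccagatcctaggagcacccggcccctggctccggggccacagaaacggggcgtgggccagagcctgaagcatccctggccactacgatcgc
The Itgax window held TGAGTCA, starting 56 bases before the start site, and no GAGGAA on either strand. The Itgam window held no TGANTCA and GAGGAA at 3 places, and the Itga4 window held neither. Promoter sequences were available for 6 of the 9 genes, and of the other windows Itgav had 2 GAGGAA matches, Itgb1 had 1 and Itgb5 had neither motif. Among all 32851 promoters available, 7.81% held TGANTCA and 28.3% held GAGGAA on either strand. A match is a description of letters and not a binding site.

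Itgam, the alpha subunit of complement receptor 3, varied little. Its log2 signal was 12.22, 12.34 and 12.12 in fosB-null arrays 1, 2 and 3, against 12.06, 12.23 and 12.12 in wild-type arrays. The groups overlapped, the arrays numbered 2 were the highest in each group, and both arrays numbered 3 held the same value. The mean was 12.22 ± 0.11 in fosB-null and 12.13 ± 0.09 in wild-type arrays (SD, n = 3 each), which differ by 0.09 with a 95% interval of -0.12 to 0.30 and an unadjusted limma p of 0.327. Without fosB-null replicate 2 the difference was 0.03.

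Itgax, the alpha subunit of complement receptor 4, went opposite ways in different pairs. CD11c is known as a marker of activated and disease-associated microglia. Its log2 signal was 10.13, 10.45 and 9.48 in fosB-null arrays 1, 2 and 3, against 9.70, 9.97 and 10.05 in wild-type arrays. The fosB-null array exceeded its wild-type partner in pairs 1 and 2 and lay under it in pair 3, with differences of 0.44, 0.48 and -0.57, so the highest and the lowest of the 6 values were both from fosB-null arrays. The mean difference of 0.12 had an SE of 0.24, a 95% interval of -0.46 to 0.69 and an unadjusted limma p of 0.644, and it was smaller than the SD of 0.49 among the 3 fosB-null arrays. Leaving out fosB-null replicate 2 gave -0.10, and leaving out replicate 3 of that group gave 0.39.

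Itgb2, the beta subunit that both complement receptors and LFA-1 share, stayed within SDs of 0.05 and 0.04 in fosB-null and wild-type arrays. Its log2 signal was 12.67, 12.71 and 12.61 in fosB-null arrays 1, 2 and 3, against 12.62, 12.66 and 12.58 in wild-type arrays. The groups overlapped, yet the fosB-null array was the higher one in each pair, by 0.04, 0.05 and 0.02. The mean difference was 0.04 with a 95% interval of -0.12 to 0.20, a fold of 1.03, and the unadjusted limma p was 0.581. A fixed block for the array number gave an unadjusted limma p of 0.0198 and an adjusted p of 0.674. The fosB-null array was the higher one in all 3 pairs in 2 of the 9 genes, Itgb2 and Itga4. That was so in 2.2% of all tested probe sets, with 5.57% lower in all 3 and 7.77% in the same direction in all 3. Among the 6419 at least as bright as the dimmest of the 9 it was so in 5.23%. Ties keep such shares low, since a probe set tied in any pair cannot count. At least 1 pair was tied in 85% of all tested probe sets, in 66.9% of the 6419 and in 4 of the 9 genes. The 2 genes are therefore not shown to be unusual by these shares.

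Itgal encodes CD11a, which joins the Itgb2 product to form LFA-1, a receptor for ICAM adhesion molecules. The log2 signal of Itgal was 9.53, 10.06 and 10.04 in fosB-null arrays 1, 2 and 3, against 9.52, 10.30 and 9.62 in wild-type arrays. The arrays numbered 1 were nearly equal, the fosB-null array was lower in pair 2 and higher in pair 3, and the groups overlapped throughout. The differences were 0.02, -0.24 and 0.42 in the pairs, and 0.07 in the mean with a 95% interval of -0.50 to 0.63 and an unadjusted limma p of 0.788. Without wild-type replicate 2 the mean difference was 0.31, and it turned to -0.08 without wild-type replicate 1. Itgal, Itgam and Itgax lie on the same chromosome as Fosb, 7, but 1231, 1268 and 1269 measured genes away from it, and Itgam and Itgax have no measured gene between them.

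Itga4 had the lowest p of the 9 genes, and its difference was in the same direction in all 3 pairs. It encodes CD49d, which pairs with the Itgb1 product to form VLA-4, a receptor for VCAM-1 and fibronectin. Its log2 signal was 11.01, 11.28 and 11.24 in fosB-null arrays 1, 2 and 3, against 10.50, 10.98 and 10.76 in wild-type arrays. Every fosB-null array lay above every wild-type array, although fosB-null array 1 cleared wild-type array 2 narrowly, and the arrays numbered 1 were the lowest in each group. Non-overlapping groups with fosB-null higher were found in 1 of the 9 genes and in 0.41% of all tested probe sets, and in either direction in 1.12%. A tie in any pair makes the groups overlap, so the 85% of probe sets with a tied pair could not be among these.

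The mean signal of Itga4 was 11.17 ± 0.15 in fosB-null and 10.75 ± 0.24 in wild-type arrays (SD, n = 3 each). The genotypes thus differed by 0.43 (SE 0.14), or 1.34-fold. The 95% interval for this gene on its own was 0.10 to 0.76, and the unadjusted limma p was 0.0180, with an adjusted p of 1. The pairs differed by 0.51, 0.30 and 0.48. Limma with the random block gave an adjusted p of 0.0407 and an unadjusted p of 6.26e-05, and as a fixed block 0.674 and 0.0124. The random block estimated a correlation of 0.956 between same-numbered arrays from a table rich in exact ties, and the part of the ties in that call was not tested. Leaving out single arrays kept the difference between 0.30 and 0.55.

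Itgb1 encodes the beta subunit CD29, which the products of Itga4, Itga6 and Itgav can all pair with. Log2 signals of Itgb1 were 12.01, 12.08 and 11.99 in fosB-null arrays 1, 2 and 3, and the wild-type arrays held exactly these values as well. The difference of 0.00 therefore has the ties as its only source, and its 95% interval of -0.16 to 0.16 is that of the moderated fit, in which a variance shared over all probe sets enters beside the gene's own spread. Nothing can be said from these values about a small difference in Itgb1.

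Itga6 encodes CD49f, the alpha subunit of laminin receptors. Arrays 1, 2 and 3 had log2 signals of 12.63, 12.69 and 12.61 in the fosB-null group, against 12.63, 12.74 and 12.44 in wild-type arrays. Pair 1 was tied, pair 2 differed by -0.05 and pair 3 by 0.17, so the groups overlapped and the mean difference of 0.04 (95% interval -0.18 to 0.26, with an unadjusted limma p of 0.666) rested on pair 3. Without both arrays numbered 3 it was -0.02.

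Itgav encodes CD51, and Itgb5 a beta subunit that pairs with it to bind vitronectin. Integrins of this alpha subunit also release TGF-beta from its latent form. The log2 signal of Itgav was 12.96, 12.84 and 12.87 in fosB-null arrays 1, 2 and 3, against 12.97, 13.01 and 12.76 in wild-type arrays. That of Itgb5 was 12.89, 12.94 and 12.78 in fosB-null arrays, against 12.89, 13.03 and 12.72 in wild-type arrays. In both genes pair 2 had the lower value in the fosB-null array, pair 3 the higher one, and the fosB-null values lay within the range of the wild-type values.

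For Itgav the mean difference was -0.02 with a 95% interval of -0.24 to 0.19 and an unadjusted limma p of 0.807. For Itgb5 it was -0.01 with a 95% interval of -0.25 to 0.22 and an unadjusted limma p of 0.916. With intervals of this width, a lack of change is not shown for either gene.

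**Figure D2:**
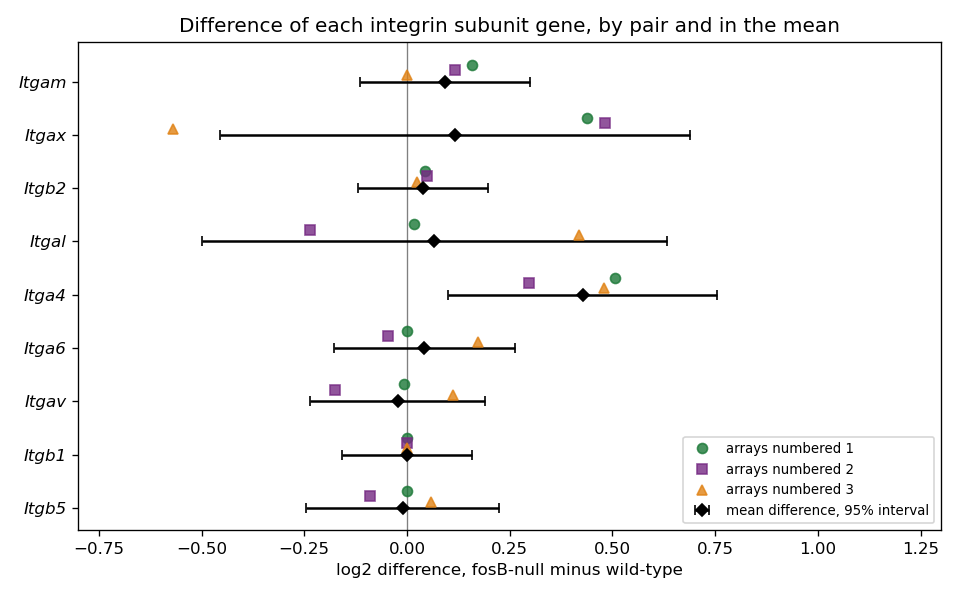
Log2 difference, fosB-null minus wild-type (horizontal axis), of each integrin gene within each numbered pair (coloured points) and in the mean (black diamonds, bars are the 95% interval of the limma fit for that gene alone). The interval of Itga4, 0.10 to 0.76, is the only 1 of the 9 that lies wholly above 0, and Itgax has pairs at 0.44, 0.48 and -0.57.

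For 8 of the 9 genes the array number went with a larger spread than the genotype did. The mean over both groups of the arrays sharing a number ranged over 0.66 for Itgal and 0.44 for Itgax, against genotype differences of 0.07 and 0.12 in size. The exception was Itga4, where the numbers ranged over 0.38 and the genotypes differed by 0.43. These are ranges over 3 numbers and a difference of 2 means, which are unlike measures, given without a test. A tie sets a pair's difference to 0 and leaves the spread over the numbers in place. Itgb1, tied in all 3 pairs, therefore had to be among the 8, and Itgam, Itga6 and Itgb5 each had a tied pair. The share over all tested probe sets was not computed, so the count is no trait particular to these genes.

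The other 17 integrin subunits on the arrays showed no call either. Their median difference was 0.00, with 5 above wild-type, 6 below and 6 tied in all pairs, and the differences ran from -0.07 to 0.12. The lowest p belonged to Itgb3, the beta subunit of a vitronectin receptor, with a mean of 9.34 in fosB-null and 9.22 in wild-type arrays and a difference of 0.12. Itga5, the fibronectin receptor alpha subunit, had means of 11.76 in fosB-null and 11.83 in wild-type arrays, a difference of -0.07. Both changed direction between pairs. Itgb8, which activates TGF-beta together with Itgav, differed by 0.04, all of it from pair 2.

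Genes that switch integrins on or tie them to the cytoskeleton were called in 0 of 30 cases. Of these activators and adaptors 16 were above wild-type, 10 below and 4 tied, with a median of 0.00. The lowest p belonged to Cytip, whose product binds cytohesin-1 and limits adhesion by LFA-1 in leukocytes. Its log2 signal was 9.76, 8.88 and 9.58 in fosB-null arrays 1, 2 and 3, against 10.37, 10.52 and 9.96 in wild-type arrays, so the groups did not overlap. The difference was -0.88 (SE 0.25, with an unadjusted limma p of 0.0101, adjusted to 1), of which pair 2 gave -1.64. Cyth1, cytohesin-1 itself, came next with 10.46, 10.49 and 10.53 in fosB-null arrays against 10.80, 10.83 and 10.57 in wild-type arrays, a difference of -0.24 with an unadjusted limma p of 0.0293 and an adjusted p of 1. Groups that did not overlap with fosB-null lower made up 0.709% of all tested probe sets, and the 85% with a tied pair could not be among them.

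Signalling genes below integrins were called in 0 of 20 measured cases, with 9 above wild-type, 8 below, 3 tied and a median of 0.00. Elmo1, which with DOCK proteins activates Rac during engulfment, had a log2 signal of 11.81, 11.88 and 11.78 in fosB-null arrays 1, 2 and 3, against 11.63, 11.71 and 11.64 in wild-type arrays. Its fosB-null arrays were all above the wild-type arrays, with a difference of 0.17 (SE 0.07) and an unadjusted limma p of 0.0463, adjusted to 1. With the random block the adjusted limma p was 0.0242. Over all tested probe sets 0.41% had groups that did not overlap with fosB-null higher, and 0.201% passed with the random block. That block estimated its correlation of 0.956 from a table rich in exact ties, and their part in the call was not tested. Dock2, a DOCK protein of haematopoietic cells, differed by 0.13, with 0.21 and 0.20 in pairs 1 and 2 and -0.02 in pair 3. No difference between these genes and Itga4 was tested.

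Among 27 measured ligands of integrins 0 were called, with 12 above wild-type, 5 below, 10 tied and a median of 0.00. Thbs1, the matrix protein thrombospondin-1, had a log2 signal of 9.31, 8.53 and 9.54 in fosB-null arrays 1, 2 and 3, against 10.25, 10.35 and 9.54 in wild-type arrays. The difference of -0.92 (SE 0.31, with an unadjusted limma p of 0.0212, adjusted to 1) came from pairs 1 and 2, and pair 3 was tied. F11r, the junctional adhesion molecule that LFA-1 can bind, differed by -0.27 in the mean and by 0.01 in pair 3. The list of latent TGF-beta and its carriers, which αv integrins act on, had 7 of 9 genes above wild-type and 2 below, with a median of 0.01 and 0 called. In that list Tgfb3 differed by -0.25, from pairs 2 and 3 at -0.65 and -0.10. Nrros, which holds latent TGF-beta on the surface of microglia, differed by 0.04.

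**Figure D3:**
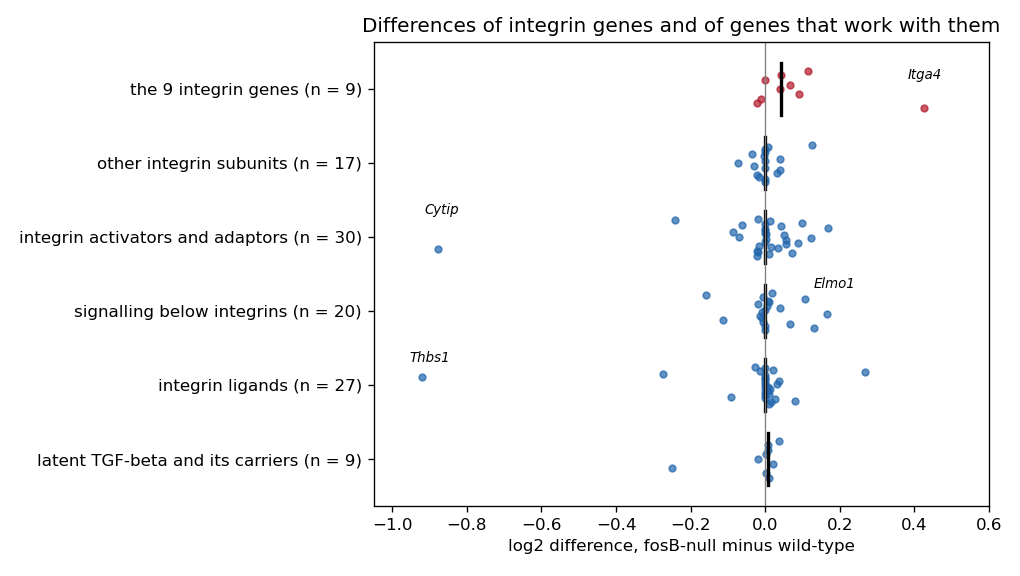
Log2 difference, fosB-null minus wild-type (horizontal axis), of each gene of 6 lists (rows). Points are genes and black bars are list medians. The median of the 9 integrin genes is 0.04 and those of the other lists lie between 0.00 and 0.01, while single genes such as Cytip (-0.88), Thbs1 (-0.92) and Itga4 (0.43) lie far from their list's median.

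Marker genes of microglia and of other cells were set beside these values. Cx3cr1, the fractalkine receptor of microglia, averaged 13.05 in fosB-null and 12.99 in wild-type arrays on the log2 scale, and Csf1r, the receptor microglia need for survival, 13.44 in fosB-null and 13.42 in wild-type arrays. The 13 measured microglia markers had 9 genes above wild-type, 3 below and 1 tied, with the lowest p at P2ry13 and Fcrls, which differed by 0.27 and 0.13. Their median difference was 0.02, and it turned to -0.018 without wild-type replicate 1 and was 0.078 without wild-type replicate 2. Blood leukocytes also express integrin genes, Itga4, Itgal and Itgax among them. The summed linear signal of their 9 measured markers ranged from 906 to 1053 in fosB-null and from 886 to 1024 in wild-type arrays. In the mean 7 were higher and 2 lower, with Ccr2 at 0.05 and Ngp at 0.03. Of these 9 markers, 0 had a mean signal above the median of all probe sets, so the sums do not measure leukocyte content. The part of blood leukocytes in the integrin values was not tested. The median difference of those markers was 0.02, and it turned to -0.051 without wild-type replicate 1. Of 10 border macrophage markers 7 were higher in the mean, 1 lower (Clec4n, at -0.24) and 2 tied. Mrc1 and Stab1 were at 0.27 and 0.18, and the median of the 10 was 0.08. That median was 0.024 without fosB-null replicate 2, 0.15 without fosB-null replicate 1 and 0.14 without the dimmest 40% of probe sets. Their summed linear signal ranged from 23361 to 27459 in fosB-null and from 22041 to 25019 in wild-type arrays. Bright genes weigh most in such a sum. Stab1 and Ms4a7 had log2 means of 13.18 and 12.83 in fosB-null and 13.01 and 12.82 in wild-type arrays. The sums therefore do not measure border macrophage content, and the part of these cells in the integrin values was not tested. Lyve1 and Cd163 of that list were tied in all pairs. Both were dim, with 30% and 24% of all probe sets in the value table at or below their mean signals. Their ties therefore do not show that border macrophages were equal in the groups.

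Markers of the other cells of the cortex were compared alongside. Astrocyte markers had 9 of 12 genes tied in all pairs and a median of 0.00, with Aldoc at 0.01 and Atp1b2 at -0.01. Oligodendrocyte lineage markers had 1 of 10 above wild-type and 5 below, with a median of -0.02, Mbp at -0.21 and Cspg4 at -0.20. That median turned to 0.042 without wild-type replicate 2 and was -0.092 without fosB-null replicate 2. Over the markers left without the dimmest 40% of probe sets it was -0.15. Neuron markers had 2 of 10 above and 4 below, with a median of 0.00, Syp at 0.09 and Map2 at -0.06. Fibroblast and mural cell markers had 7 of 12 above and 2 below, with a median of 0.01, Igfbp5 at -0.33 and Igfbp4 at 0.13. Endothelial markers had 3 of 8 above and 3 below, with a median of 0.00, Kdr at -0.08 and Vwf at 0.12. Without the dimmest 40% of probe sets the median was 0.10, over Vwf and Flt1 alone. None of these genes was called. Fosb, the mutated gene, had a log2 signal of 7.82, 8.05 and 7.83 in fosB-null arrays 1, 2 and 3, against 8.01, 8.14 and 7.92 in wild-type arrays. The labels do not give the position of its probe set on the mutated gene, so these values are no test of genotype.

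The genes whose pattern over the 6 arrays was most like that of each complement receptor subunit were found by Pearson correlation among 17159 named genes, as a description. The 6 arrays fall into 3 pairs of related values, so such likeness follows the array numbers as well as the genotype. Picking the highest of 17159 coefficients over 6 arrays gives high values by itself, so they are no evidence of shared regulation. For Itgam these were Lrp1, an endocytic receptor of the LDL receptor family, at 0.996, Cks2, a subunit of cyclin-dependent kinases, at 0.995, and Dclk2 at 0.994. For Itgax they were Tlr1, a Toll-like receptor for bacterial lipopeptides, at 0.988, Ncoa3, a nuclear receptor coactivator, at 0.987, and the splicing factor Srsf2 at 0.975. Like Itgax, by which it was picked, Tlr1 was lowest in fosB-null array 3, at 11.06, and highest in fosB-null array 2, at 11.58. For Itgb2 they were Gspt1, a translation termination factor, the kinase Wnk1 and P2ry6, a receptor for UDP that triggers microglial phagocytosis, each at 0.98. None of these genes passed the test.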

How the data were processed

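The deposited values are log2 signals, 1 per probe set and array, deposited by the authors. The submitters' processing notes name Affymetrix Expression Console. Its version, summary method and normalization are not stated there, and the values themselves (1.73 to 14.6, array medians 7.76 to 7.92) show the log2 scale. The number of arrays limits the precision. Per the labels' protocols, 100 ng of total RNA was amplified and biotinylated. Genes came from the platform annotation, with symbols updated through a RefSeq table of GRCm38.p6 that held 21698 of 21789 single-gene probe sets. Positions from that table were used only for chromosome and gene order, since no source names the build of the array design. The promoter sequences came from a separate set.

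The comparison used limma 3.58.1 under R 4.3.3 (lmFit, eBayes, two-sided, no block, no filter), with Benjamini-Hochberg adjustment over 23410 probe sets and a threshold of 0.05. The script was tested on simulated data. Those values were drawn independently for each array, without exact ties, so the test does not cover the replicate blocks on these data. Deviations of same-numbered arrays from their group means had correlations of 0.62, 0.56 and 0.58, which is why numbers were read as pairs. Exact ties, in 51.3%, 45.2% and 46.3% of the probe sets for numbers 1, 2 and 3, were included and raise such correlations. How much of the pairing comes from the ties was not tested. Only the values show this pairing, since the labels leave the numbers unexplained. Prior degrees of freedom were 2.84, and 0.358 with the fixed replicate block.

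Members and lists were chosen with earlier results of these data known. A gene with several single-gene probe sets was represented by the brightest. Genes named were the 9 members, the 2 genes of each list with the lowest p, the 3 most like each complement receptor subunit, and Fosb. Itgb8, Cx3cr1, Csf1r, Lyve1, Cd163, Ms4a7, Clec4n, Cd3e, Flt1 and Rbfox3 were named after their values were seen. The lists were other integrin subunits, integrin activators and adaptors, signalling below integrins, integrin ligands, latent TGF-beta and its carriers, and markers of microglia, border macrophages, blood leukocytes, astrocytes, neurons, oligodendrocyte lineage, endothelium, and fibroblasts and mural cells. Alternatives covered scaling, filters, variance models, the replicate block and arrays left out.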

Additional observations from a re-analysis of the deposited data

How the results depend on the processing

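With single arrays left out, 0 of the 9 integrin genes passed in any fit, the number of genes called ranged from 1 to 2 over all probe sets, and the median difference of the 9 ranged from -0.018 to 0.11. The differences then ranged from 0.03 to 0.15 for Itgam, -0.10 to 0.39 for Itgax, 0.02 to 0.07 for Itgb2, -0.08 to 0.31 for Itgal, 0.30 to 0.55 for Itga4, -0.041 to 0.11 for Itga6, -0.10 to 0.03 for Itgav, -0.03 to 0.03 for Itgb1 and -0.091 to 0.065 for Itgb5, so direction held for Itgam, Itgb2 and Itga4. Without both arrays numbered 1, 2 or 3, 0 genes were called, in fits with fewer arrays. Without those numbered 1 Itgax differed by -0.04. Without those numbered 2 Itgax differed by -0.07, Itgav by 0.053 and Itgb5 by 0.03. Without those numbered 3 Itgal differed by -0.11, Itgax by 0.46, Itga6 by -0.02, and the median of the 9 was 0.00. The fixed replicate block called 0 genes, also when fitted on the probe sets with unequal values in at least 1 pair. The 2 settings restricted to those probe sets were chosen after seeing the data. With the restriction Itgb1, tied in all 3 pairs, was left out of the fit, and 0 of the other integrin genes passed. The fit without moderation called 0 genes. The random replicate block called 47 genes and 1 of the 9, Itga4, at a difference of 0.43 with a limma adjusted p of 0.0407, and the cause was not tested. Its adjusted p ranged from 0.0407 to 1 over all alternatives. The blocks changed no other call among the 9. Quantile normalization, median centring, filters, other tested sets, trend, robust and weighted fits and a threshold of 0.1 changed no call among the 9 and turned no direction, leaving aside Itgb1 with its difference of 0.00. The list medians have no test. A filter or restriction drops genes from a list, so the median is then over the genes left. Median centring subtracts each array's median and so shifts every difference equally. Itgb1, tied in all pairs, went from 0.00 to -0.024 by it. Other causes of the shifts were not tested. With single arrays left out, the median differences of the gene lists ranged from -0.041 to 0.044 for other integrin subunits, -0.035 to 0.062 for activators and adaptors, -0.024 to 0.034 for signalling, -0.036 to 0.057 for ligands, -0.043 to 0.049 for latent TGF-beta, -0.018 to 0.078 for microglia, -0.029 to 0.032 for astrocytes, -0.092 to 0.042 for oligodendrocyte lineage, -0.028 to 0.033 for neurons, -0.015 to 0.069 for fibroblasts and mural cells, -0.024 to 0.057 for endothelium, 0.024 to 0.15 for border macrophages and -0.051 to 0.075 for blood leukocytes. Only that of border macrophages kept its sign in all 6 of these fits. Under quantile normalization the list medians that moved were -0.018 for other integrin subunits and endothelium, -0.0029 for activators and adaptors, 0.0019 for signalling, -0.015 for ligands, -0.013 for latent TGF-beta, -0.017 for astrocytes, -0.040 for oligodendrocyte lineage, -0.019 for neurons, -0.0075 for fibroblasts and mural cells, 0.068 for border macrophages and -0.00089 for blood leukocytes. Under median centring they were -0.024 for other integrin subunits, signalling, ligands, astrocytes, neurons and endothelium, -0.023 for activators and adaptors, -0.016 for latent TGF-beta, -0.046 for oligodendrocyte lineage, -0.015 for fibroblasts and mural cells, 0.057 for border macrophages and -0.0013 for blood leukocytes. Without the dimmest 40% of probe sets they were -0.019 for other integrin subunits, 0.0038 for ligands, -0.15 for oligodendrocyte lineage and 0.043 for neurons. In that setting they were 0.029 for fibroblasts and mural cells, 0.10 for endothelium, 0.14 for border macrophages and 0.026 for blood leukocytes. These are medians over the genes left by the filter. Blood leukocytes kept Cd3e alone, endothelium Vwf and Flt1, and neurons Syp and Rbfox3. With array weights they were -0.0074 for other integrin subunits, -0.0032 for ligands, -0.0030 for astrocytes, -0.014 for oligodendrocyte lineage, -0.0017 for neurons, 0.00022 for endothelium, 0.049 for border macrophages and 0.0088 for blood leukocytes. On the probe sets with unequal values in a pair, with or without the fixed block, they were -0.0030 for other integrin subunits, 0.0066 for activators and adaptors, 0.0063 for signalling, 0.012 for ligands, 0.0025 for astrocytes, -0.10 for oligodendrocyte lineage, -0.017 for neurons, 0.037 for fibroblasts and mural cells, 0.010 for endothelium and 0.12 for border macrophages. Leaving out both arrays numbered 1 they were 0.00 for oligodendrocyte lineage and 0.015 for blood leukocytes. Leaving out both arrays numbered 2 they were 0.0017 for signalling, 0.094 for microglia, 0.00 for oligodendrocyte lineage and fibroblasts and mural cells, 0.062 for border macrophages and 0.0056 for blood leukocytes. Leaving out both arrays numbered 3 they were 0.0038 for signalling, -0.032 for oligodendrocyte lineage, 0.018 for border macrophages and 0.034 for blood leukocytes. Using the mean of several probe sets of a gene was not run, since each of the 9 has 1.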

Other observations

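Several genes around the integrins differed the same way in all 3 pairs without passing the test. Apart from Elmo1, Cytip and Cyth1 they were chosen after their values were seen, and each had a limma adjusted p of 1. Of 20 signalling genes 3 were higher in all 3 pairs (Elmo1, Vav1 and Dock1) and 2 lower (Src and Syk). Vav1 and Dock1 differed by only 0.02 and 0.01 in the mean, with pairs as small as 0.0008 and 0.0015. The pairs of Elmo1 differed by 0.19, 0.17 and 0.14. Of 30 activators and adaptors 1 was higher (Fyb) and 4 lower (Cytip, Cyth1, Itgb1bp1 and Parvb), and of 27 ligands 2 were higher (Fn1 and Icam1) and 0 lower. The kinases Src and Syk, which relay signals from integrins that contain the Itgb2 product, were lower in fosB-null arrays in each pair. Src averaged 8.56 in fosB-null and 8.72 in wild-type arrays, and its pairs differed by -0.20, -0.19 and -0.09. Syk averaged 10.66 in fosB-null and 10.78 in wild-type arrays, and its pairs differed by -0.25, -0.05 and -0.05. Among ligands, Fn1, fibronectin, which the Itga4 product binds, was higher in each pair, by 0.63, 0.05 and 0.12. Icam1, a ligand of LFA-1 and complement receptor 3, was higher by 0.10, 0.13 and 0.004. For Src, Syk, Fn1 and Icam1 the groups overlapped. Over all tested probe sets 2.2% were higher and 5.57% lower in all 3 pairs. A tie in any pair keeps a probe set out of these shares, and 85% had such a tie.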
